A study of Mus musculus with 44 samples.

Results

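Tdpoz1, Tdpoz2, Tdpoz3, Tdpoz4 and Tdpoz5, the genes of the mouse Tdpoz family that bear these names, were followed in single two-cell embryos. They were taken by name from the RNA-seq table, in which all 5 had a row among 35269 mRNA probes, and all 5 passed the filter on low values (an average of 0 or more on the log2 scale). Tdpoz5 passed it narrowly, with a mean of 0.075, whereas Tdpoz1 had a mean of 5.76 over the 44 embryos. RPM is the number of reads of a gene scaled to a library of 1000000 reads counted in genes.

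Tdpoz proteins carry an N-terminal MATH domain, also called the TRAF homology domain, which in related proteins binds substrates, and a C-terminal BTB/POZ domain, which mediates dimerisation and in related proteins binds cullin 3. The best-studied protein of this layout is SPOP, a substrate adaptor of the cullin 3 ubiquitin ligase. The Tdpoz genes lie in a cluster of young copies and are known for expression in early mouse embryos around the time when the embryonic genome is first transcribed.

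The embryos came from natural matings of C57Bl/6 mice in which Dppa2 and Dppa4, a pair of neighbouring genes for small nuclear DNA-binding proteins of early embryos, could be deleted together by Zp3-Cre, a Cre driven by an oocyte promoter. The 14 WT embryos (Dppa2/4+/+) came from control females and wild-type males (ctrl-x-WT; 10 from mating 1 and 4 from mating 2). The 15 HET1 embryos (Dppa2/4+/-) came from females lacking both genes in the oocyte and wild-type males (cKO-x-WT; 7 and 8). The 5 HET2 embryos (Dppa2/4+/-; 4 and 1) and the 10 HOM embryos (Dppa2/4-/-; 3 and 7) came from such females and heterozygous males (cKO-x-HET), and the authors had told the 2 genotypes apart by the Dppa2 and Dppa4 transcripts in these same libraries. HET1, HET2 and HOM embryos thus shared the lack of a maternal supply. HET2 and HOM embryos shared 2 litters. Every other litter held embryos of 1 group, so that comparisons with WT embryos are also comparisons between litters, with 2 litters on each side.

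Median Dppa2 levels were 336 RPM in WT, 68.7 RPM in HET1, 68.9 RPM in HET2 and 0 RPM in HOM embryos, of which 7 of 10 had no Dppa2 read. The only HET2 embryo of mating 2 (e) had 472 RPM of Dppa2, above the WT median, where the other 4 had 27.2 to 101 RPM. Its Dppa4 level of 54.5 RPM lay below that of the lowest WT embryo (80.2 RPM), where the other 4 had 22.9 to 38.7 RPM. Total reads per embryo ranged from 247667 to 3163026, and HET1 embryos were the shallowest (median 528166, against 1770010 in WT embryos). The level that 3 reads stand for, taken as the limit of detection, was therefore 0.948 to 4.70 RPM in WT and 1.64 to 12.1 RPM in HET1 embryos. Each library held the whole embryo, so that loss of a cell and less RNA per cell cannot be told apart.

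The 5 genes spanned 309773 bp of chromosome 3 (GRCm38), and the stretch from the first to the last of them held 8 rows of the table, these 5 included. Tdpoz2 (chr3:93651542-93652686), Tdpoz1 (chr3:93669333-93676310) and Tdpoz5 (chr3:93960292-93961314) are on the minus strand, Tdpoz4 (chr3:93796398-93797510) and Tdpoz3 (chr3:93826020-93827117) on the plus strand. In GENCODE M21, all 5 are protein coding. Tdpoz2, Tdpoz3, Tdpoz4 and Tdpoz5 are annotated with 1 exon, whereas 1 of the 2 transcripts of Tdpoz1 has a separate first exon (chr3:93676195-93676310) upstream of the exon with the coding sequence. The encoded proteins have 365, 360, 365, 370 and 340 residues for Tdpoz1 to Tdpoz5, in that order.

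How far each gene can be told from its copies sets what its read count can mean, and the first 75 coding bases of each gene, the length of 1 read, show it. Capitals mark bases that differ from Tdpoz1 at the same position, and the last line is the neighbouring gene Gm10697, which RefSeq (GRCm38.p6) names Tdpoz7.
Tdpoz1: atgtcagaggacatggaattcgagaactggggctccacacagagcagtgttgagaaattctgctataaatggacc
Tdpoz2: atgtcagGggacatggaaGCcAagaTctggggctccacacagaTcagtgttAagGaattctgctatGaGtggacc
Tdpoz3: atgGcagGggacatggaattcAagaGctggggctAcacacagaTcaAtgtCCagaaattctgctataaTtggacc
Tdpoz4: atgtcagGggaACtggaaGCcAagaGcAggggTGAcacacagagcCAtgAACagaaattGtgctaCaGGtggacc
Tdpoz5: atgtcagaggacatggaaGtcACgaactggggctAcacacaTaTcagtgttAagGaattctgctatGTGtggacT
Gm10697: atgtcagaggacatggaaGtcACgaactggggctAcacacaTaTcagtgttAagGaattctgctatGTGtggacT
In this stretch, Tdpoz2 and Tdpoz3 each differed from Tdpoz1 at 10 of 75 positions, Tdpoz5 at 12 and Tdpoz4 at 20. Tdpoz5 and Gm10697 did not differ at any position here, and their coding sequences were 100% identical over 1023 bases. Tdpoz4 was the most divergent member. Over the whole coding sequence it shared 77.8% of aligned bases with Tdpoz1, whereas the closest pair, Tdpoz1 and Tdpoz3, shared 88.1% of bases and 77.5% of residues. Between Tdpoz1 and SPOP, 58.9% of aligned residues were identical.

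Among all GENCODE M21 transcripts, 80.1% of the 75-base windows of Tdpoz4 occurred in no other gene. For Tdpoz1 this share was 68.1%, for Tdpoz2 66.9% and for Tdpoz3 45.5%. None of the windows of Tdpoz5 was unique (0.0%), since all of them recur in Gm10697. The copies that shared most windows were Gm9117 for Tdpoz1, Gm5773 for Tdpoz2, Gm4982, an unprocessed pseudogene, for Tdpoz3, and Gm4858 (Tdpoz8 in RefSeq) for Tdpoz4. The authors kept reads with a mapping quality of at least 20, which leaves out most reads that map equally well to several places. Reads were counted without strand. The levels of Tdpoz5 and Tdpoz3 are therefore the least certain of the 5.

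Tdpoz1 and Tdpoz4 were the abundant members. Tdpoz1 had reads in 44 of 44 embryos, with 3480 reads in all, and its level ranged from 17.3 to 138 RPM around a median of 53.4. Tdpoz4 had reads in 42 of 44 embryos, 1938 in all, with a median of 28.4 RPM and a maximum of 138. Per kilobase of annotated transcript the median levels were 23.0 (Tdpoz1) and 25.5 (Tdpoz4) RPM per kb, but Tdpoz4 is annotated without untranslated parts. Per kilobase of coding sequence they were 48.6 (Tdpoz1) and 25.5 (Tdpoz4) RPM per kb, so that the order of the 2 genes depends on the length used.

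The other members were low and patchy. Tdpoz2 had reads in 36 of 44 embryos (median 7.72 RPM, or 6.74 RPM per kb) and Tdpoz3 in 25 of 44 (median 1.81 RPM, or 1.65 RPM per kb). Tdpoz5 had 32 reads in total in 16 embryos, and only WT embryo d of mating 1, with 13 reads, had at least 3. Neither the transcript nor the coding length was corrected for the share of unique windows, which was 45.5% for Tdpoz3 and 0.0% for Tdpoz5. By either length, Tdpoz1 and Tdpoz4 were followed by Tdpoz2, Tdpoz3 and Tdpoz5 in the order of medians. Neighbours lower in this order overlapped as well, since each of Tdpoz2, Tdpoz3 and Tdpoz5 was without reads in some embryos. Spop, which encodes SPOP, had a median of 13.1 RPM per kb of transcript and 35.8 RPM per kb of coding sequence, the first below and the second above that of Tdpoz4.

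The 5 genes together took 40.3 to 264 RPM per embryo, with medians of 125 in WT, 90.3 in HET1, 101 in HET2 and 108 in HOM embryos. The WT litters had medians of 139 (mating 1) and 65.5 RPM (mating 2), on either side of those of the knockout groups. Tdpoz1 made up a mean of 62.4% ± 15.8 (SD, n = 14) of these reads in WT, 60.1% ± 17.9 (n = 15) in HET1, 54.7% ± 13.1 (n = 5) in HET2 and 44.5% ± 18.4 (n = 10) in HOM embryos. Tdpoz4 took more reads than Tdpoz1 in 10 of 44 embryos, of which 4 were HOM, 3 WT, 2 HET1 and 1 HET2. In WT embryo k of mating 2 and HET1 embryo m of mating 2, Tdpoz1 was the only member with reads. The first of these libraries had 1065975 reads and the second 334972, and both had reads of Gm4858.

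**Figure D1:**
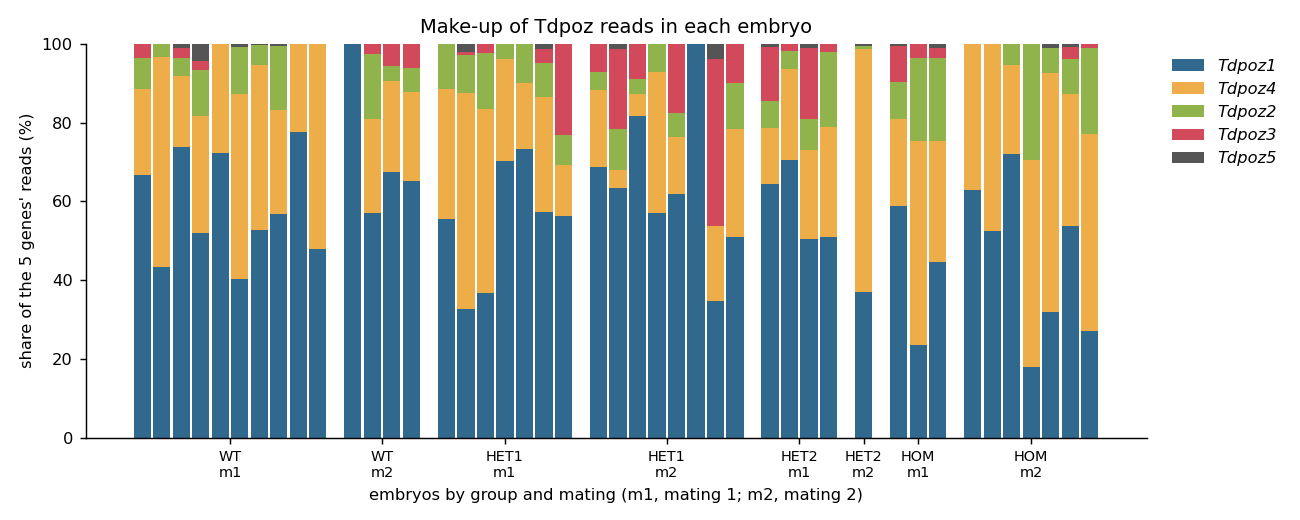
Share of the reads of Tdpoz1 to Tdpoz5 taken by each gene (percent, vertical axis) in each of the 44 embryos, with 1 bar per embryo, grouped by genotype and mating. Tdpoz1 and Tdpoz4 together fill the larger part of every bar, Tdpoz3 reaches 42.3% in 1 HET1 embryo of mating 2, and 2 bars consist of Tdpoz1 alone.

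Whether the genes depend on DPPA2 and DPPA4 was asked by comparing each knockout group with WT embryos, on log2 RPM with a common floor of 1.86, the value of a gene without reads in the shallowest embryo. Differences are given on this scale, which understates the change of low genes. Adjusted p-values are from limma with Benjamini-Hochberg adjustment over 16412 genes, and they treat embryos as replicates although littermates are related.

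None of the 5 members was called in any of the 3 comparisons with WT embryos. The share of all tested genes called was 4.54% in HET1 embryos, 0.0305% in HET2 embryos and 0.0183% in HOM embryos. At an unadjusted p under 0.05, 1 of 5 members (Tdpoz3) passed in HET1, the same gene in HET2 and 0 in HOM embryos, beside 18.4%, 8.52% and 14.5% of all genes. With limma voom on the recovered reads the counts of called members were 1 (Tdpoz3), 0 and 0, beside 13.5%, 0.104% and 0.0548% of all genes. A count of 1 in 5 is the smallest above 0 and lies near the larger of these shares.

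Tdpoz1 had 37.7, 64.2 and 127 RPM (lowest, median and highest) in WT embryos. In HET1 embryos these values were 17.3, 50.8 and 138 RPM, and in HOM embryos 22.4, 44.5 and 96.0 RPM. The 5 HET2 embryos had 82.9, 71.2, 64.4 and 48.1 RPM (mating 1) and 34.2 RPM (mating 2). All 4 groups overlapped over most of their range. On the log2 scale the means were 6.00 ± 0.51 (SD, n = 14) in WT, 5.68 ± 0.67 (n = 15) in HET1, 5.84 ± 0.51 (n = 5) in HET2 and 5.50 ± 0.63 (n = 10) in HOM embryos. The difference from WT was −0.32 in HET1 (95% interval −0.77 to 0.13, limma adjusted p = 0.474), −0.16 in HET2 (−0.79 to 0.48, adjusted p = 0.972) and −0.50 in HOM embryos (−1.0 to 0.0075, adjusted p = 0.349). Without WT mating 1 these differences were 0.11, 0.28 and −0.065.

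Tdpoz4 had 0, 29.6 and 138 RPM (lowest, median and highest) in WT embryos, 0, 20.2 and 70.2 RPM in HET1 embryos and 19.3, 38.6 and 84.0 RPM in HOM embryos. In HET2 embryos it had 18.3, 23.4, 28.6 and 26.3 RPM (mating 1) and 56.8 RPM (mating 2). The HOM embryos had the highest median and the HET1 embryos the lowest, with overlapping ranges. The difference from WT was −0.77 in HET1 (95% interval −1.59 to 0.057, limma adjusted p = 0.315), −0.016 in HET2 (−1.17 to 1.14, adjusted p = 1) and 0.59 in HOM embryos (−0.33 to 1.51, adjusted p = 0.557). The sign in HET1 embryos depended on the WT litter. Without WT mating 1 the differences were 0.46 in HET1, 1.21 in HET2 and 1.82 in HOM embryos, and without WT mating 2 they were −1.26, −0.50 and 0.10 (adjusted p of 0.0627 or above).

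Tdpoz2 had 0, 4.12 and 24.3 RPM in WT, 0, 7.36 and 22.8 RPM in HET1 and 0, 12.7 and 36.6 RPM in HOM embryos, again as lowest, median and highest. In HET2 embryos the values were 8.89, 4.51, 10.0 and 18.1 RPM (mating 1) and 0.580 RPM (mating 2). Each of WT, HET1 and HOM held embryos without a read of it. The difference from WT was 0.057 in HET1 (95% interval −0.73 to 0.85, limma adjusted p = 0.981), 0.17 in HET2 (−0.94 to 1.28, adjusted p = 1) and 0.75 in HOM embryos (−0.13 to 1.62, adjusted p = 0.433).

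Tdpoz3 was the member with the largest positive difference from WT in HET1 and HET2 embryos. WT embryos had 0, 0 and 4.68 RPM (lowest, median and highest), HET1 embryos 0, 4.52 and 44.1 RPM, and HOM embryos 0, 0.913 and 14.8 RPM. The 5 HET2 embryos had 17.8, 1.804, 22.9 and 1.813 RPM (mating 1) and 0 RPM (mating 2). The ranges overlapped at 0 in all 4 groups, while 7 of 15 HET1, 2 of 5 HET2 and 1 of 10 HOM embryos lay above the highest WT embryo. The difference from WT was 0.96 in HET1 (95% interval 0.28 to 1.63, limma adjusted p = 0.0909), 0.95 in HET2 (0.0051 to 1.90, adjusted p = 0.583) and 0.17 in HOM embryos (−0.58 to 0.92, adjusted p = 0.881). Many embryos lay at the common floor, and the SD was 0.11 in WT (n = 14) and 1.27 in HET1 embryos (n = 15). The model used 1 estimate of the spread for all 4 groups. Without cKO-x-HET mating 1 the HET2 and HOM differences were both −0.039.

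The HET1 value rested on 1 litter. Without mating 2 of cKO-x-WT it was 0.38 (adjusted p = 0.615), without mating 1 it was 1.46 (adjusted p = 0.00545), and with litter as a random effect it was 0.94 (adjusted p = 0.619). At least 3 Tdpoz3 reads were found in 9 of 15 HET1 and in 6 of 14 WT embryos, and the HET1 embryos were the shallower group. Without the embryos under 500000 reads the difference was 1.03 (limma adjusted p = 0.14).

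Tdpoz5 had at most 2 reads in any HET1, HET2 or HOM embryo and lay at the common floor in all of them, so that no difference was detectable. None of its 75-base windows is unique, so that the filter on mapping quality can leave out its reads at any depth. How many it left out was not tested. In WT embryo d of mating 1, 13 reads (6.04 RPM) were counted, while Gm10697, its identical copy, had no read in any WT embryo.

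**Figure D2:**
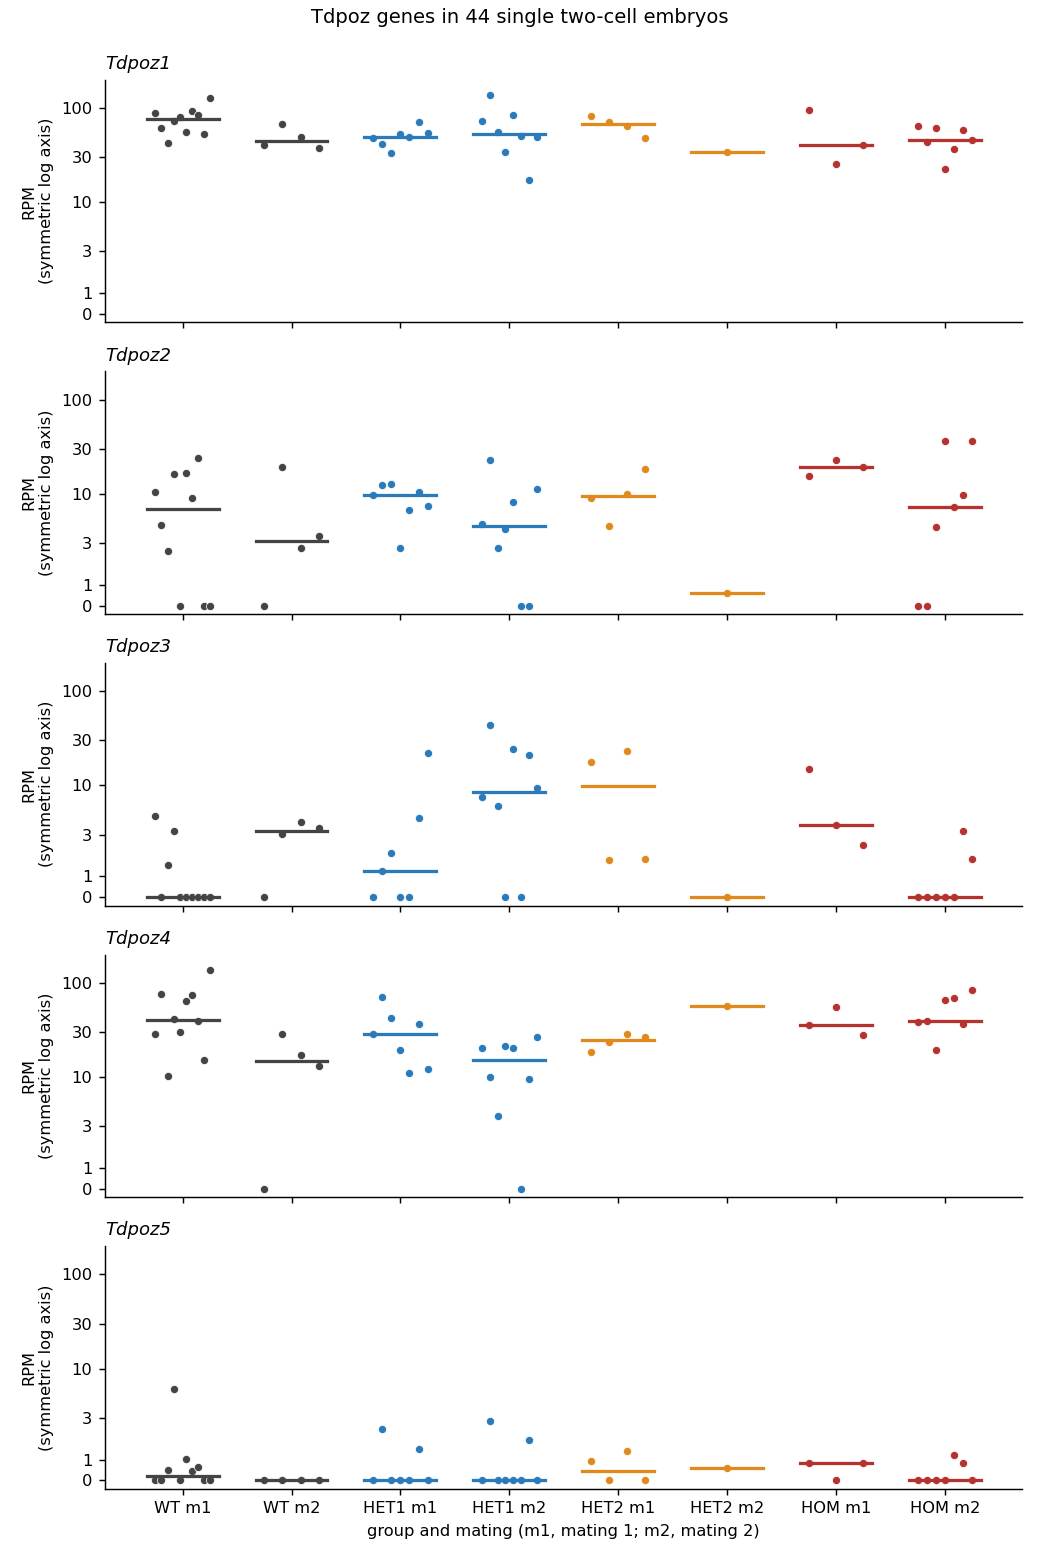
RPM of each Tdpoz gene (vertical axis, linear below 3 and logarithmic above) in each embryo (points), by group and mating, with the median as a line. Tdpoz1 lies between 17.3 and 138 RPM throughout, Tdpoz3 is at 0 in many embryos and reaches its single highest value, 44.1 RPM, in a HET1 embryo of mating 2, and Tdpoz5 exceeds 3 RPM in 1 WT embryo.

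HET2 and HOM embryos were compared within the cKO-x-HET litters, where they share litters and differ in their own genotype. Here 2 of 16412 genes (0.0122%) were called, Dppa2 and Dppa4 themselves, which had been used to assign the genotypes. No Tdpoz gene was called, by limma or by limma voom, and 0 passed at an unadjusted p under 0.05, as 0.0183% (voom) and 4.36% (unadjusted) of all genes did. The differences, HOM minus HET2 with the litter in the model, were −0.20 for Tdpoz1 (95% interval −0.99 to 0.59), 1.14 for Tdpoz2 (−0.36 to 2.64), −0.36 for Tdpoz3 (−1.48 to 0.76) and 0.35 for Tdpoz4 (−0.45 to 1.15). The limma adjusted p-values were 0.898 or above. The comparison within mating 2 rests on HET2 embryo e, and without it the differences were −0.50, 1.04, −0.54 and 0.69 (adjusted p = 1 for each).

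**Figure D3:**
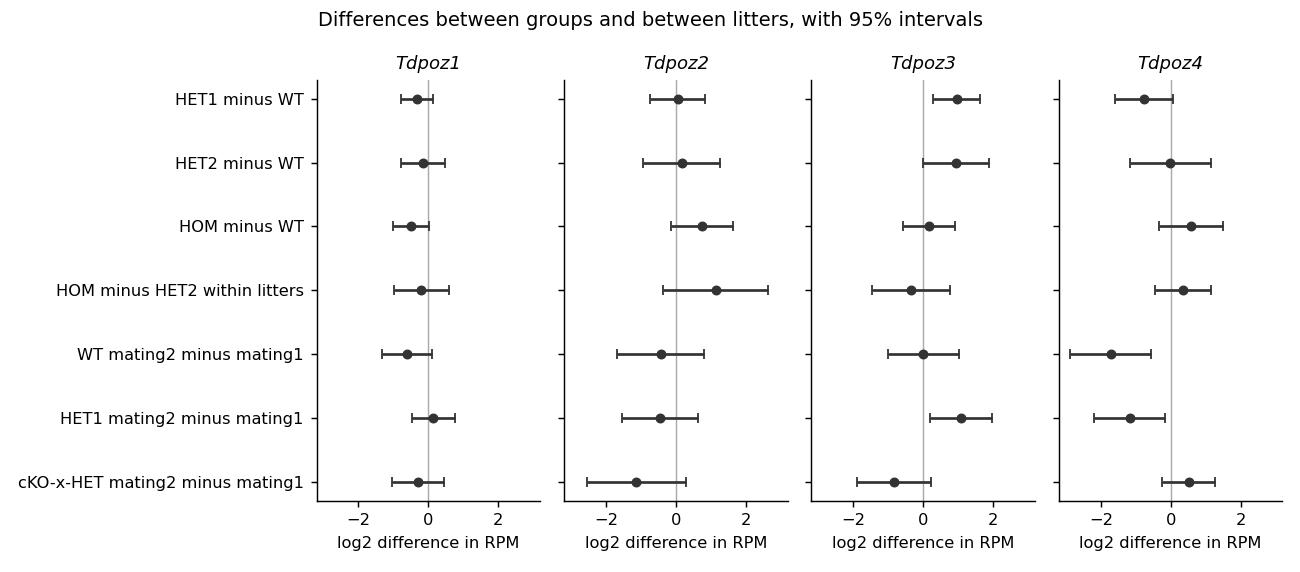
Differences in log2 RPM (horizontal axis; points, with 95% intervals from limma) for Tdpoz1 to Tdpoz4 in 4 comparisons of groups and 3 of litters. The intervals leave out 0 for Tdpoz3 in HET1 and HET2 embryos against WT and between the HET1 litters, and for Tdpoz4 between the WT and between the HET1 litters, and none of these passed the adjustment over all genes.

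Litters of the same cross were then compared, since they carry the same genotypes. None of the members was called in any of the 3 comparisons of mating 2 with mating 1, in which 2.55% (WT), 16.6% (HET1) and 3.41% (cKO-x-HET) of all tested genes were called. At an unadjusted p under 0.05, the counts of members were 1, 2 and 0 of 5, beside 14.8%, 29% and 18.7% of all genes. By limma voom they were 0, 0 and 1, beside 5.23%, 12.3% and 8.37%. The member counts thus lay near the shares over all genes.

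Tdpoz3 and Tdpoz4 gave these values. In HET1 embryos, Tdpoz3 was detected with at least 3 reads in 6 of 8 embryos of mating 2 and 3 of 7 of mating 1, with medians of 8.47 and 1.23 RPM. The difference was 1.09 (95% interval 0.20 to 1.97, limma adjusted p = 0.0862), and it passed the threshold without the embryos under 500000 reads (1.78, adjusted p = 0.0219) and after each embryo's values were centred on their median (1.29, adjusted p = 0.0428). Dppa2 itself, which HET1 embryos can transcribe from the paternal allele, was called lower in mating 2 (−1.56, adjusted p = 0.000179), and its part in the Tdpoz3 values was not tested. In the cKO-x-HET crosses the litters stood the other way round. All 3 HOM embryos of mating 1 had Tdpoz3 reads (36, 3 and 3), as did all 4 HET2 embryos (38, 2, 16 and 2), whereas 2 of 7 HOM embryos of mating 2 (4 and 1) and the lone HET2 embryo of mating 2 (0) made up the other litter. The difference was −0.85 (95% interval −1.91 to 0.21, limma adjusted p = 0.372), and it was −3.11 with limma voom (adjusted p = 0.0151).

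Tdpoz4 was lower in mating 2 of both WT and HET1 embryos, short of the threshold in each. In WT embryos of mating 2 it had 0, 28.5, 16.9 and 12.97 RPM, against 10.4 to 138 RPM (median 40.5) in mating 1. The difference of −1.71 (95% interval −2.87 to −0.55, limma adjusted p = 0.103) was −1.13 without the embryo that had no read (adjusted p = 0.668). In HET1 embryos, 0 to 26.5 RPM (median 15.1) in mating 2 stood against 11.1 to 70.2 RPM (median 28.3) in mating 1, a difference of −1.18 (95% interval −2.19 to −0.16, limma adjusted p = 0.106). In cKO-x-HET embryos the difference was 0.52 (−0.24 to 1.28, adjusted p = 0.456).

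Of a list of 10 markers of cumulus cells, the follicle cells that surround the oocyte, 3 of the 5 tested were called higher in WT mating 2, beside 2.55% of all genes. These were Vim, Col1a2 and Lum, which are general genes of connective tissue cells, with reads in 8, 4 and 4 of the 44 embryos. Their means were 0.143, 0.354 and 0.358, where Fshr, without a read, had −0.155. They thus passed the filter at 0 through the few embryos with reads, and the count of 3 of 5 cannot be weighed against that share. In WT mating 2 the list summed to 76.7 to 205 RPM against 11.7 to 79.1 RPM in mating 1. Of the other markers, Fshr had no read in any embryo, Ptx3 had reads in 1, Inhba in 1, Has2 in 2, Tnfaip6 in 10 and Cyp19a1 in 16 (at most 39 reads), and 9 of the 10 had a median of 0 reads over all embryos. The embryo of mating 2 without Tdpoz4 reads had the highest sum of the 44. Amhr2, the only marker of the list with a median above 0 reads, was called lower in HET1 mating 2 (−1.55, limma adjusted p = 0.0415). It was the only 1 of the 5 tested that was called there, beside 16.6% of all genes. The part of these markers in the Tdpoz4 values was not tested. Against WT, none of the 5 tested was called in HET1, HET2 or HOM embryos, beside 4.54%, 0.0305% and 0.0183% of all genes.

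Genes of the two-cell programme, such as the Zscan4 cluster, which is transcribed in a burst at this stage, were called between litters of both kinds of cross with cKO mothers. Of the 24 tested, 16 were called higher in HET1 mating 2 than in mating 1, beside 16.6% of all genes, with a median difference of 2.03 against −0.060 for all genes. In cKO-x-HET mating 2, 5 of the 24 were called lower than in mating 1 and 0 higher, beside 3.41% of all genes, with a median difference of −1.44 against 0 for all genes. Zfp352, a zinc finger gene of this stage, differed by 2.24 between the HET1 litters (limma adjusted p = 0.0103) and by −2.46 between the cKO-x-HET litters, short of the threshold (adjusted p = 0.0968). The WT litters held 0 called genes of this list. Their summed level was 1251 to 3458 RPM in HET1 mating 2 and 455 to 1574 RPM in mating 1. Against WT, 3 of the 24 (Sp110, Gm4340 and Tcstv1) were called higher in HET1 embryos, beside 4.54% of all genes, and 0 in HET2 and in HOM embryos. With litter as a random effect these 3 calls were lost, as were all others in HET1 minus WT (lowest adjusted p over all genes 0.0809).

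Maternal transcripts, which the oocyte lays down and the embryo clears, were called as well: 9 of 20 were higher in HET1 mating 2, beside 16.6% of all genes, with a median difference of 1.012. In cKO-x-HET mating 2, 5 of 20 were lower, beside 3.41% of all genes, with a median difference of −1.12. Omt2b and Omt2a, the most abundant of them, were in both counts. Against WT, 4 of the 20 (H1foo, Btg4, Ooep and Tle6) were called higher in HET1 embryos, beside 4.54% of all genes, and 0 in HET2 and in HOM embryos. These 4 calls too were lost with litter as a random effect (adjusted p of 0.0809 or above). The part of embryo stage in the Tdpoz3 values was not tested.

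Over the 44 embryos, log2 Tdpoz3 correlated with the log2 summed level of the 24 two-cell genes at r = 0.60 (Spearman's rho = 0.59), and after removal of each group-by-litter mean at r = 0.27. Tdpoz4 gave r = −0.28 over all embryos and 0.13 within group and litter. These are descriptions of libraries that share litter and depth, and the second value leaves out differences between groups as well as between litters. Among the members themselves, the strongest pairing was that of Tdpoz2 with Tdpoz4 (r = 0.42 over all embryos and 0.42 within group and litter), whereas Tdpoz1 with Tdpoz4 gave 0.082 and Tdpoz3 with Tdpoz4 −0.29 and −0.030. The abundant pair, Tdpoz1 and Tdpoz4, thus showed little correlation between embryos. With total reads, r lay between −0.21 and 0.28 for the 5 members.

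**Figure D4:**
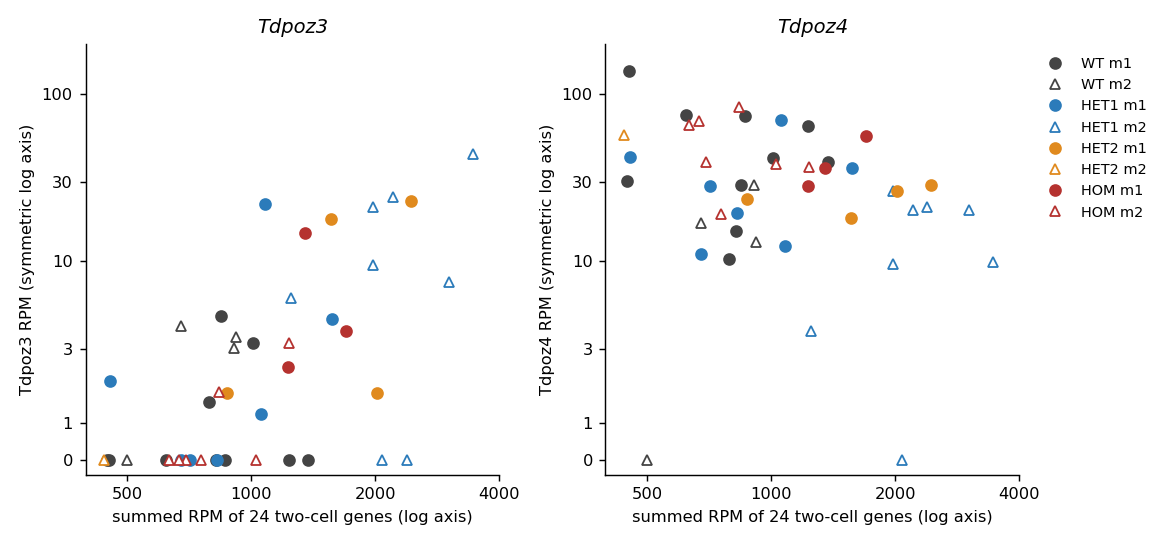
RPM of Tdpoz3 (left) and Tdpoz4 (right; vertical axes linear below 3 and logarithmic above) against the summed RPM of 24 two-cell genes (logarithmic axis), with 1 symbol per embryo by group and mating. Embryos of HET1 mating 2 lie at 1251 RPM or above on the horizontal axis, and 6 of these 8 carry more than 5 RPM of Tdpoz3.

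The relatives of the family in the table were compared next. Of the named or predicted relatives listed, some of them under 2 names, 8 genes were matched by symbol and 6 were tested. Gm4858 (Tdpoz8; chr3:93068823-93075505), whose coding sequence shares 94.3% of aligned bases with Tdpoz4, had reads in 44 of 44 embryos with a median of 50.2 RPM. That is 27.8 RPM per kb of transcript and 52.5 RPM per kb of coding sequence. It was the only 1 of the 6 relatives called against WT, in HET1 embryos, where 4.54% of all genes were called. Its level was 18.0, 36.0 and 54.9 RPM (lowest, median and highest) in WT and 24.7, 76.2 and 194 RPM in HET1 embryos, a difference of 1.14 (95% interval 0.50 to 1.79, limma adjusted p = 0.0303). The 2 groups overlapped, and the call was lost with litter as a random effect, where limma called 0 of 16412 genes in HET1 minus WT (lowest adjusted p = 0.0809; 1300 genes at an unadjusted p under 0.05; 2220 called by limma voom without that effect). In HET2 and HOM embryos its difference from WT was 1.35 (adjusted p = 0.402) and 0.67 (adjusted p = 0.377). Tdpoz4, its closest named relative, had a difference of −0.77 in the same HET1 embryos, which turned to 0.46 without WT mating 1.

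Between litters the difference of Gm4858 was 0.98 in HET1 (limma adjusted p = 0.0586), −1.50 in cKO-x-HET (adjusted p = 0.0701) and −0.26 in WT embryos (adjusted p = 0.948). Its r with the two-cell genes was 0.77 over all embryos and 0.52 within group and litter. Spop, the gene of the adaptor itself, was called lower in HET1 mating 2 than in mating 1 (−1.31, adjusted p = 0.0287), as 1 of 6 relatives beside 16.6% of all genes. Spop did not pass against WT in any group (−0.49, 0.087 and −0.18 in HET1, HET2 and HOM; lowest adjusted p = 0.448). Its paralogue Spopl was low, with a median of 2.53 RPM.

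Of 16 genes of the cullin 3 ligase and of cullin neddylation, all tested, 1 was called against WT in HET1 embryos (Rbx1, the RING subunit, by 0.49, limma adjusted p = 0.0434), beside 4.54% of all genes, and 0 in HET2 and in HOM embryos. The Rbx1 call was lost with litter as a random effect (adjusted p of 0.0809 or above). Cul3, the scaffold, was abundant (median 692 RPM) and had differences of −0.67, −0.41 and −0.44 in HET1, HET2 and HOM embryos, none of which passed (lowest adjusted p = 0.238). Between the HET1 litters 5 of the 16 were called, 3 higher and 2 lower, beside 16.6% of all genes.

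Near the cluster, reads were found mainly for the family and its copies. Of the 15 rows within 200 kb, the members included, Tchhl1 and Gm37245 had no read in any embryo, S100a11 had reads in 4 and S100a10 in 6. Gm38207, of no stated relation, had reads in 24. Gm5773, with 98.1% of coding bases shared with Tdpoz2, had reads in 42 embryos and a median of 9.17 RPM. Gm9125 (Tdpoz9 in RefSeq), with 98.5% of coding bases shared with Tdpoz1, had reads in 33, and Gm9117 in 28. Only 14.8% (Gm9125) and 10.4% (Gm9117) of their 75-base windows occurred in no other gene, so that their counts are uncertain too.

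The genes whose pattern was most like the mean of the 5 members, among 6917 genes that averaged 3 or more on the log2 scale, were Spdl1 (r = 0.58 over 44 embryos), Hyls1 (0.56), Usp22 (0.54), Gpatch3 (0.53) and Smu1 (0.52). After removal of each group-by-litter mean they were Gm20425 (0.58), Arpc3 (0.58), Ctbp2 (0.58), Gm49388 (0.57) and Slc6a9 (0.55), so that the 2 sets of 5 held no gene in common. Each set is the top of 6917 values. The members had little pattern in common (r of at most 0.42 between members), so that their mean does not stand for each of them.

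Promoter windows of 300 bases around the annotated start were held by the RefSeq table (GRCm38.p6) for Tdpoz1, Tdpoz4 and Tdpoz5. They were searched on both strands for GATTNAATC, the core bound by the homeodomain factor DUX, for GGATTA, bound by homeodomain factors of the OTX and OBOX type, for AGGTCA, the nuclear receptor site, for the TATA box TATAAA and for the GC box, GGGCGG. Only exact matches were counted, with N for any base. Variants of a site, such as the TATATAA that the Tdpoz1 window holds, were not. Matches of different motifs were allowed to overlap. GGATTA was the only motif with a match in a member, in Tdpoz1, and it was found as TAATCC on the gene's strand, at position −118 from the RefSeq start (93676283), which differs from the GENCODE start given above for the first exon. The same hexamer recurred in the window of Tdpoz9 and in 1 of the 2 windows of Tdpoz8. In the lines that follow, 30 bases are given 5′ to 3′ on the gene's strand (Tdpoz1, minus strand, chr3:93676384-93676413; Tdpoz9, minus strand, chr3:94054959-94054988; Tdpoz8, plus strand, chr3:93068720-93068749), with the match in capitals.
Tdpoz1: aacacacaccttTAATCCagctttgagact
Tdpoz9: aacacacaccttTAATCCagctttgagact
Tdpoz8: aacacacaccttTAATCCagatcttgagac
Of 32851 promoter windows of the same length, 7.1% hold GGATTA, 0.3% GATTNAATC, 16.3% AGGTCA, 13.6% TATAAA and 35.7% GGGCGG. Aligned parts of the Tdpoz1 and Tdpoz9 windows were 100% identical over 272 bases, while Tdpoz1 and Tdpoz4 shared 57.2% of aligned bases. The other window of Tdpoz8 shared 96.2% of 293 aligned bases with that of Tdpoz4. The annotated starts of Tdpoz4 and Tdpoz5 are their first coding bases, so that their windows need not hold a promoter. The lack of matches in the Tdpoz4 and Tdpoz5 windows therefore says little about their promoters.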

How the data were processed

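RNA from 44 single embryos was captured with oligo-dT beads and amplified by Smart-seq2. The authors trimmed reads (Trim Galore 0.6.5, cutadapt 2.3), mapped them to GRCm38 with HISAT2 2.1.0, kept those with a MAPQ of at least 20, and deposited log2 RPM for 35269 mRNA probes, counted in SeqMonk without strand. A gene with no read is listed at the value that 0.9 read would have. Reads behind each value were recovered from this step (99.9997% of values lay within 0.05 read of a whole number). Without molecular identifiers, they cover counting error only.

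Values were raised to a common floor of 1.86. The 16412 genes that averaged 0 or more on the log2 scale entered limma (version 3.58.1 under R 4.3.3; lmFit, then eBayes with a trend), called at an adjusted p under 0.05 over all of them, and the code was tested on simulated data. All 44 embryos entered the comparisons with WT and the WT and HET1 litters, and 15 embryos those within cKO-x-HET litters. Sequence identity, unique windows and motifs were computed in Python 3.11.15 from GENCODE M21 and RefSeq. The members, relatives, two-cell, maternal, cullin 3 and cumulus lists, and the rule for named genes (5 members in full; relatives, neighbours within 200 kb, the 4 most abundant genes of each list; the 5 most alike), were chosen with earlier results of these data known. Called genes of a list that fall outside this rule were named after their values were seen. Some listed genes are not reported here.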

Additional observations from a re-analysis of the deposited data

Results flagged for a closer look

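Tdpoz3 in HOM embryos had 1 embryo far from the other 9. Embryo a of cKO-x-HET mating 1 lay at 3.88 log2 RPM (36 reads), and the next highest at 1.93 (3 reads), a gap to range ratio of 0.965. It was the only flag among 8 sets of 5 or 10 embryos checked. Chance flags about 1 in 20 sets of normally distributed values, but 8 of these 10 embryos lay at the common floor, so that this rate does not apply here. This embryo had 2438144 reads and was also the HOM embryo with the highest Tdpoz1 level, at 96.0 RPM.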

How the results depend on the processing

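None of the 5 genes was called in any of the 7 comparisons, and this count of 0 changed under few alternatives. In HET1 minus WT it was 2 of 5 without the common floor (24.7% of all genes), 1 with limma voom on recovered reads (13.5%), and 0 to 1 when each litter was left out in turn (14.3% where it was 1, without cKO-x-WT mating 1). The 2 were Tdpoz3 (1.94, adjusted p = 0.0172) and Tdpoz5, whose sign turned (1.14, adjusted p = 0.0208). Without a common floor, genes without reads take a higher value in a shallower embryo. Between the WT litters it was 1 without the common floor (Tdpoz4, −2.24, adjusted p = 0.0422; 2.9% of all genes), between the HET1 litters 1 with re-centring (15.4%) and 1 without embryos under 500000 reads (6.81%), and between the cKO-x-HET litters 1 with limma voom (8.37%), each of them Tdpoz3. Other causes were not tested. Of 429 alternative values of 35 differences, 41 changed sign, 1 of them a called value. In HET2 and HOM embryos against WT and within litters, 0 members were called under each alternative.

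The labels do not say which animals a mating number shares between crosses, and the numbers did not pair the litters: the difference of mating 2 from mating 1 over 6919 genes correlated at 0.43 between WT and HET1, −0.43 between WT and cKO-x-HET and −0.81 between HET1 and cKO-x-HET embryos. With the mating number as a replicate block, 0 members were called in each comparison with WT (Tdpoz3 in HET1, 0.91, adjusted p = 0.128). Of all genes, 586 instead of 745 were called in HET1, 7 instead of 5 in HET2 and 3 in both fits in HOM embryos.

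Calls over all genes depended on the setting far more: against WT, 745 in HET1 (0 to 4054 over the alternatives, and 0 with litter as a random effect or litter means), 5 in HET2 (0 to 114) and 3 in HOM embryos (0 to 249). They were 2 within litters (2 to 6), 419 between WT litters (169 to 938), 2721 between HET1 litters (1118 to 2680) and 560 between cKO-x-HET litters (256 to 1373). Re-centring moved the share of higher calls from 54.9% to 40% in HET1 minus WT and from 29.9% to 50% between the HET1 litters, where it moved the median of genes with a mean of at least 3 from −0.38 to −0.042. The filter at a mean log2 RPM of 3 removed Tdpoz2, Tdpoz3 and Tdpoz5. In the shallowest embryo, 3 reads stood for 12.1 RPM.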
